A study of Mus musculus with 4 samples.

Results

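The genes of the Wnt pathway that act at the cell surface and at its nuclear end were described on the 4 arrays of this study of ketamine in mice. The set was drawn by gene symbol and not by any measured value, but it was chosen with earlier results of these data known. It took in the Wnt ligands, the Frizzled receptors, the co-receptors Lrp5 and Lrp6, the secreted antagonists of the Sfrp, Dkk and Wif families, the Axin scaffolds and the TCF/LEF transcription factors. It found 45 genes among the 19938 genes of the array that had a probe set (here called a row) with exactly 1 symbol. These 45 genes had 46 rows because Wnt4 had 2, and for Wnt4 the row with the higher mean was used. The symbol Tcf7 had no row of this kind, and Sfrp3 is listed under its mouse name Frzb, which was kept among the extracellular modulators.

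Wnt proteins are secreted, lipid-bearing signals. When a Wnt binds a Frizzled receptor together with Lrp5 or Lrp6, the Axin complex that destroys β-catenin is disabled, β-catenin reaches the nucleus and TCF/LEF factors switch on target genes. Sfrp and Wif1 proteins bind the ligand and most Dkk proteins block the co-receptor, while other branches act without β-catenin on cell polarity and calcium. In the brain the pathway is known for patterning the embryo, for wiring axons and synapses, and for building the vessels of the blood-brain barrier.

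The arrays were Affymetrix Mouse Gene 1.0 ST chips, each read with RNA of a separate ICR mouse, an outbred strain. Ketamine, an NMDA receptor blocker, was injected into the abdomen daily at 30 mg/kg, and control mice received normal saline. The study's methods put the treatment at 3 months and describe male mice that were 1 month old when obtained, whereas the labels call the mice female. All 4 samples are labelled as prefrontal cortex, 2 mice per group. The titles and the source fields of the samples give opposite treatments for the same arrays. The groups here follow the titles and are called titled saline and titled ketamine. By the source fields every direction below would be turned.

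Values are log2 expression as deposited, and a difference is titled ketamine minus titled saline on that scale. A gene was called when limma's adjusted p was under 0.05 over all rows, and with 2 arrays against 2 an exact permutation test of a single gene could not go below p = 0.333. The arrays of a group had a correlation of 0.995 (titled saline) and 0.996 (titled ketamine) across genes, against 0.959 to 0.969 between groups. The median difference over all genes was 0.13 on the deposited values and 0.01 after quantile normalisation. The 2 titled saline arrays held exactly equal values in 916 rows, Fzd5 and Wnt8b among them, and the titled ketamine arrays in 95 rows, while no pair across groups shared more than 1. Whether all 4 arrays were normalised together is not given in the sources used here. A value under the 95th percentile of the olfactory receptor genes on its array (4.20 to 4.56 on the log2 scale) was called dim.

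Markers of other brain regions moved with the groups. Of all genes, 23.2% were called higher on titled ketamine and 9.92% lower. All 12 cerebellar granule cell markers were higher on titled ketamine, with a mean log2 level of 6.53 and 5.97 on the titled saline arrays and 9.60 and 9.46 on the titled ketamine arrays, led by Gabra6 (difference 6.62) and Cbln3 (6.01). Of 10 markers of forebrain projection neurons 9 were lower, their mean going from 8.34 and 8.39 to 5.51 and 5.41, and Tbr1, a defining factor of cortical projection neurons, was dim on both titled ketamine arrays. The tissue label thus does not match the forebrain markers there. Of the Purkinje cell markers 7 of 9 were higher and 1 lower, of the Bergmann glia and astrocyte markers 4 of 9 higher and 1 lower, and of the choroid plexus markers 8 of 9 higher. All 6 striatal and all 8 microglial markers were lower. The thalamic list had 3 higher and 4 lower of 10, the fibroblast list 2 and 1 of 10 and the endothelial list 2 and 1 of 9, while all 7 oligodendrocyte markers missed limma's threshold (0 of 7 had an unadjusted p under 0.05). The part of these cell types in the Wnt gene differences was not tested. Treatment and tissue cannot be told apart here, and in bulk RNA fewer cells of a type and less RNA per cell cannot be told apart either.

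Among the 45 Wnt genes, 8 were higher on titled ketamine, 8 were lower and 29 did not pass limma's threshold. Called genes made up 35.6% of the set, beside 33.1% of all 19938 genes, so the share as a whole was near the background. The directions were 17.8% higher beside 23.2% of all genes, and 17.8% lower beside 9.92% of all genes. This even split held on the deposited values only. After quantile normalisation 5 were higher and 11 lower. With all arrays set to the same median (median centring) 5 were higher and 13 lower. The calls of all rows shifted too, from 5109 higher and 2115 lower on the deposited values. They became 3311 higher and 3074 lower after quantile normalisation, and 3210 and 3213 under median centring. All 16 called genes kept the sign of their difference under every setting in which they were measured. With arrays left out this was fixed in advance, because the groups of these 16 genes do not overlap. The filter, the trend and robust settings and the replicate block did not change the differences. Median centring lowered every difference by the same amount, too little to turn a sign of these genes. Axin1, the smallest of the 8 higher differences, went from 0.40 to 0.27 under centring and to 0.25 after quantile normalisation. The 2 groups did not overlap for 31 of the 45 genes, or 68.9%, beside 70.2% of all genes. The differences ran from -2.16 to 1.75, and 5 genes were past 2-fold, 11.1% beside 6.35% of all genes. Past 1.3-fold, 10 genes were higher (22.2%, beside 24.0% of all genes) and 8 lower (17.8%, beside 10.1%).

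**Figure D1:**
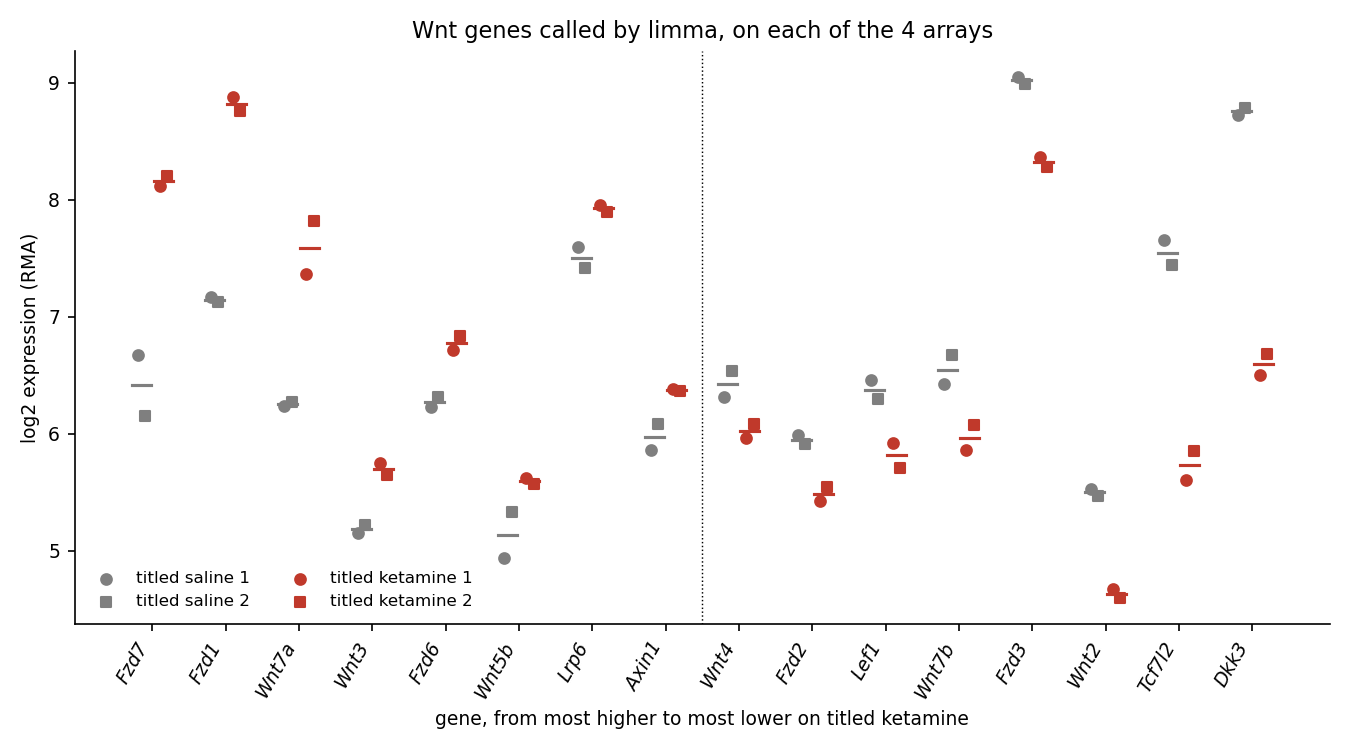
The log2 expression (vertical axis) of the 16 called Wnt genes on each of the 4 arrays, grey for titled saline and red for titled ketamine, with circles for array 1, squares for array 2 and a bar at each group mean. Genes run from the highest to the lowest difference. In each of the 16 the 2 groups do not overlap, as in 70.2% of all genes. The 16 were chosen by their call on these same arrays.

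With single arrays left out, the difference lay between -2.25 and -2.07 for Dkk3 and between 1.61 and 1.73 for Fzd1. It ranged more for Wnt7a, from 1.11 to 1.56. The number of calls depended on having both titled ketamine arrays in the fit. With either of them left out, limma called none of the 45 Wnt genes and none of all genes, although 12 (without array 1) and 15 (without array 2) of the Wnt genes had an unadjusted p under 0.05, as had 5974 and 6461 of all rows; the lone array was then assumed to vary like the other group. Without titled saline array 1, 9 of the 16 genes were still called, and without titled saline array 2, 12 were. Fzd1, Fzd7, Wnt7a, Fzd3, Wnt2, Tcf7l2 and Dkk3 were called with either titled saline array left out and under both other scalings.

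The ligands were divided between directions. Of 19 Wnt ligands, Wnt7a, Wnt3 and Wnt5b were higher on titled ketamine, Wnt2, Wnt7b and Wnt4 were lower and 13 did not pass. Called ligands made up 31.6%, near the 33.1% of all genes. The median difference of the ligands was -0.09 beside 0.13 over all genes.

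Wnt7a, which cerebellar granule cells are known to release onto the axons that contact them, had log2 values of 6.24 and 6.27 on the titled saline arrays and 7.36 and 7.82 on the titled ketamine arrays. It was the only ligand past 2-fold, with a difference of 1.34 (SE 0.158, limma adjusted p = 0.00107), a 2.52-fold higher level. The titled ketamine arrays differed by 0.45 from each other, and the difference was 1.11 without titled ketamine array 2 and 1.56 without array 1. Its close relative Wnt7b, which works with Wnt7a in the growth of brain vessels, ran the other way. Wnt7b stood at 6.43 and 6.67 on titled saline and at 5.86 and 6.07 on titled ketamine, a difference of -0.58 (SE 0.134, limma adjusted p = 0.0158). The call on Wnt7b was lost without titled saline array 2 (adjusted p = 0.0914).

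Wnt2, a ligand of the β-catenin branch, was the ligand with the lowest difference. It read 5.53 and 5.47 on titled saline and 4.67 and 4.60 on titled ketamine, and both pairs lay within 0.08 of each other. The difference was -0.87 (SE 0.106, limma adjusted p = 0.00124), a ratio of 0.549. The titled ketamine values of Wnt2 lay close to the dim level of those arrays (4.56 and 4.46). Wnt3, a ligand known from Purkinje cells in the cerebellum, read 5.15 and 5.22 against 5.75 and 5.65, a difference of 0.52 (SE 0.108, limma adjusted p = 0.0111), and lost its call without titled saline array 1 (adjusted p = 0.0567).

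Wnt4 and Wnt5b lay close to the threshold. Wnt4, which in development is best known from the kidney and the ovary, had values of 6.31 and 6.54 on titled saline and 5.97 and 6.09 on titled ketamine. Its difference was -0.40 (SE 0.123, limma adjusted p = 0.0452), and the second row of the gene gave -0.60 (SE 0.116, limma adjusted p = 0.00808), so the 2 rows had the same direction. The call on the first row was lost without either titled saline array (adjusted p = 0.0530 without array 1 and 0.163 without array 2). Wnt5b, a ligand mostly of the branches without β-catenin, read 4.94 and 5.33 against 5.62 and 5.57, a difference of 0.46 (SE 0.147, limma adjusted p = 0.0483). Its titled saline arrays were 0.39 apart, so that the difference was 0.27 without titled saline array 1 (adjusted p = 0.159), and it also missed the threshold after quantile normalisation (adjusted p = 0.108) and after median centring (0.119).

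For the ligands with the largest difference in each direction, the 250 bases before the transcription start are shown, so that the promoters of Wnt7a and Wnt2 can be set side by side. They come from the RefSeq promoter table on build GRCm38.p6 and are printed 5′ to 3′ on the gene's strand, with CpG dinucleotides in capitals. Wnt7a lies on the minus strand at chr6:91411354-91411603 and Wnt2 on the minus strand at chr6:18030446-18030695.
Wnt7a: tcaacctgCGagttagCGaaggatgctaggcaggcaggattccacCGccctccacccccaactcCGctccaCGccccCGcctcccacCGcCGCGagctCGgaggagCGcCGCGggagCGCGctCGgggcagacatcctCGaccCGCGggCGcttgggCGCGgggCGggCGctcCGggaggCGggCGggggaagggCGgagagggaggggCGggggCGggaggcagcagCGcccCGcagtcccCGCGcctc
Wnt2: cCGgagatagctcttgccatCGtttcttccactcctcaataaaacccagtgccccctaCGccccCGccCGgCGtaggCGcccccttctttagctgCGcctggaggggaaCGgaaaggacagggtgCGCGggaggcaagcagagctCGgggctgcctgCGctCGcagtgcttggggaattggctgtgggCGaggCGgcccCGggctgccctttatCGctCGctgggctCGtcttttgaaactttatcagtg
The Wnt7a stretch held 34 CpG at 77.6% GC and the Wnt2 stretch 20 at 63.6% GC.

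The 13 other ligands had differences between -0.35 (Wnt9a, limma adjusted p = 0.0977) and 0.38 (Wnt16, adjusted p = 0.0911). Both limits moved with single arrays: Wnt9a was -0.17 without titled ketamine array 1 and -0.52 without array 2, and Wnt16 was 0.18 without titled saline array 1 and 0.57 without array 2, where limma called it (adjusted p = 0.0434). Wnt9b and Wnt6 had differences of 0.31 each, with limma adjusted p = 0.0634 and 0.0779. Also above 0 were Wnt8a (0.26), Wnt8b (0.25) and Wnt11 (0.07), and below 0 were Wnt5a (-0.09), Wnt10b (-0.11), Wnt1 (-0.12), Wnt2b (-0.13), Wnt10a (-0.26) and Wnt3a (-0.27). Wnt3a and Wnt9a were called lower under quantile normalisation (limma adjusted p = 0.0277 and 0.0349) and under median centring (0.0367 and 0.0289), and Wnt10a under median centring (0.0498). Wnt8b, a ligand of the embryonic forebrain margin, was dim on all 4 arrays, and Wnt1, the ligand of the embryonic midbrain and hindbrain border, was dim on 3 of them. Some ligand genes are next to each other in the RefSeq gene order, and 4 such pairs were measured. Wnt9b and Wnt3 had differences of 0.31 and 0.52, Wnt3a and Wnt9a -0.27 and -0.35, Wnt10b and Wnt1 -0.11 and -0.12, and Wnt6 and Wnt10a 0.31 and -0.26, so that 3 pairs shared a sign.

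**Figure D2:**
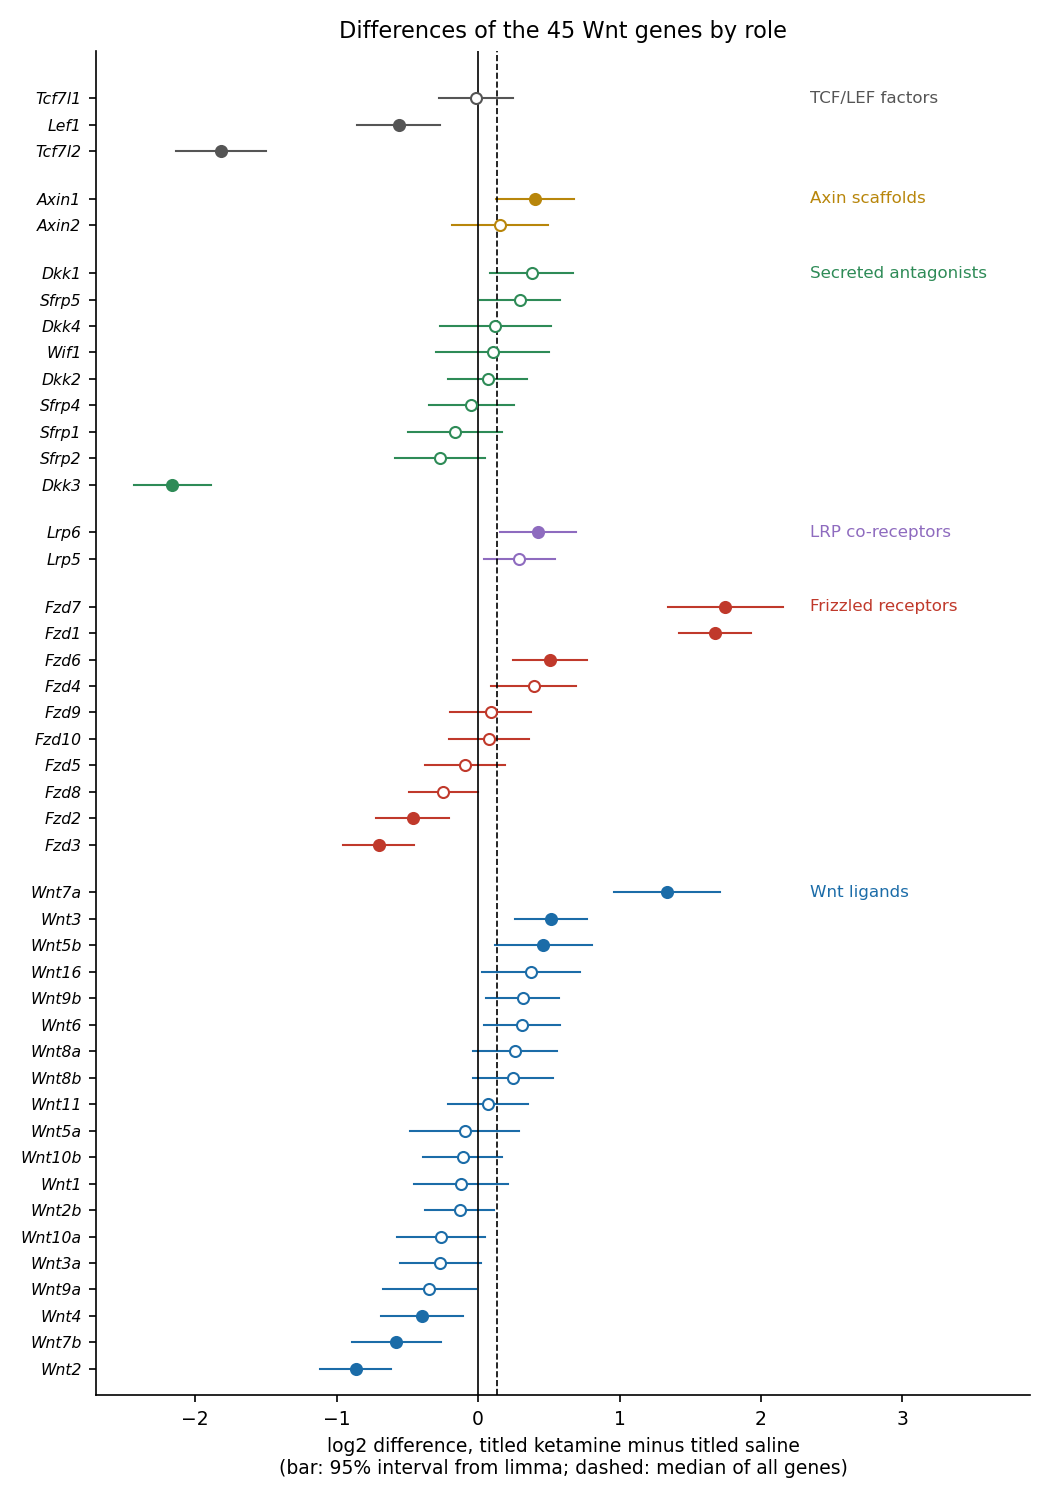
The log2 difference (horizontal axis, titled ketamine minus titled saline) of the 45 Wnt genes, grouped by role, with the 95% interval from limma. Filled points are the 16 genes called by limma, open points the other 29, and the dashed line is the median of all genes at 0.13.

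The Frizzled receptors, the membrane proteins that Wnts bind, held the genes with the highest differences of the set. Of 10 Frizzled genes, Fzd7, Fzd1 and Fzd6 were higher, Fzd3 and Fzd2 were lower and 5 did not pass. Called genes made up 50%, beside 33.1% of all genes, and the median difference was 0.08.

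Fzd1 and Fzd7, which with Fzd2 form 1 branch of the family and mainly carry the β-catenin signal, were the only receptors past 2-fold. Fzd1 read 7.17 and 7.12 on titled saline and 8.88 and 8.76 on titled ketamine. The difference was 1.67 (SE 0.108, limma adjusted p = 8.60e-05), a 3.19-fold higher level. Fzd7 read 6.67 and 6.15 on titled saline and 8.12 and 8.21 on titled ketamine, so the titled saline arrays were 0.52 apart, the widest gap within a group among the 45 genes. Titled saline array 1 also had the higher mean of granule cell markers (6.53 against 5.97) and the higher Gabra6 (6.73 against 3.28), whose part in the gap was not tested. Its difference was 1.75 (SE 0.174, limma adjusted p = 5.03e-04), a 3.36-fold higher level, and lay between 1.49 and 2.01 with single arrays left out. Fzd2, the third receptor of the branch, was lower instead. It read 5.99 and 5.91 against 5.43 and 5.55, a difference of -0.46 (SE 0.110, limma adjusted p = 0.0177), and lost its call without titled saline array 1 (adjusted p = 0.0763) or array 2 (0.0581).

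The upstream sequences of Fzd1 and Fzd7 are shown because these related receptors had the highest differences. They are again 250 bases long on build GRCm38.p6 with CpG in capitals, Fzd1 on the minus strand at chr5:4758217-4758466 and Fzd7 on the plus strand at chr1:59481897-59482146.
Fzd1: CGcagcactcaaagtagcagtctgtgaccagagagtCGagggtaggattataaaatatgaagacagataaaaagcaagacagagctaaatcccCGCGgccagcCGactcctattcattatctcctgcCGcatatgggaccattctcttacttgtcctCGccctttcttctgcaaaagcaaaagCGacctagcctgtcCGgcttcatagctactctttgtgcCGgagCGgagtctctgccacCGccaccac
Fzd7: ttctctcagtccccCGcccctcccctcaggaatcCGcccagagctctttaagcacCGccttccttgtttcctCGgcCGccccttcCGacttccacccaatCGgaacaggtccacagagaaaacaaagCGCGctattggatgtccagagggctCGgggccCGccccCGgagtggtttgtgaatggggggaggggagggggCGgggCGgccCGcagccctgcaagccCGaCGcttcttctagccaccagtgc
They held 12 CpG at 51.2% GC for Fzd1 and 17 CpG at 65.2% GC for Fzd7. With the 50 bases after the start added, the windows of 300 bases held 16 CpG (54.0% GC) and 24 CpG (66.7% GC). Over the 37 promoter windows of 300 bases (250 before to 50 after the start) found for 30 of the 45 genes, the median was 25.0 CpG and 67.3% GC, beside 7.0 CpG and 52.7% GC over all 32851 windows of the table.

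Fzd3 and Fzd6, the pair best known for planar cell polarity and for guiding axons and hair follicles, also moved apart. Fzd3 read 9.05 and 8.99 on titled saline and 8.36 and 8.27 on titled ketamine, a difference of -0.70 (SE 0.107, limma adjusted p = 0.00308). Fzd6 read 6.23 and 6.31 against 6.72 and 6.84, a difference of 0.51 (SE 0.110, limma adjusted p = 0.0126), and lost its call without titled saline array 1 (adjusted p = 0.0635). Fzd4, the receptor of Norrin in retinal and brain vessels, read 6.12 and 5.94 against 6.54 and 6.31. Its difference of 0.39 was past 1.3-fold but just missed the threshold (SE 0.128, limma adjusted p = 0.0529). Fzd4 was called with the filter on low rows (limma adjusted p = 0.0267) and with trend and robust settings (0.0341), and was further from a call after quantile normalisation (0.173) and median centring (0.178). Fzd8 had a difference of -0.24 (adjusted p = 0.115 on the deposited values and 0.0264 after quantile normalisation). Fzd5 (-0.09), Fzd10 (0.08) and Fzd9 (0.09) had groups that overlapped.

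Of the co-receptors, Lrp6 passed and Lrp5 did not. Lrp6, the main partner of Frizzled in the β-catenin signal, read 7.59 and 7.42 on titled saline and 7.96 and 7.90 on titled ketamine. The difference was 0.42 (SE 0.114, limma adjusted p = 0.0281), and the call was lost without titled saline array 2 (adjusted p = 0.107) and under quantile normalisation (0.0818) and median centring (0.107). Lrp5, best known for its role in bone mass and retinal vessels, read 5.64 and 5.54 against 5.90 and 5.86. Its difference was 0.29 with a 95% interval of 0.04 to 0.54 (limma adjusted p = 0.0744), and the intervals of the 2 co-receptors overlapped.

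Among the 9 secreted antagonists, 1 was lower and 8 did not pass, with a median difference of 0.07. The share called was 11.1%, beside 33.1% of all genes. The gene that passed was Dkk3, a divergent member of the Dickkopf family that is known from neurons of the cortex and hippocampus and whose effect on Wnt signalling is less clear than that of Dkk1. Dkk3 read 8.72 and 8.79 on titled saline and 6.50 and 6.68 on titled ketamine. The groups were more than 2 log2 units apart, against 0.07 between the titled saline arrays and 0.18 between the titled ketamine arrays. The difference of -2.16 (SE 0.115, limma adjusted p = 4.60e-05), a ratio of 0.224, was the lowest of the 45 genes. Dkk1, the classical blocker of Lrp5 and Lrp6, read 4.21 and 4.44 against 4.76 and 4.64, a difference of 0.38 that did not pass (SE 0.124, limma adjusted p = 0.0538). Its titled saline values lay just above the dim level of those arrays (4.20 and 4.43). The others had differences between -0.27 (Sfrp2, limma adjusted p = 0.163, and 0.0488 under median centring) and 0.30 (Sfrp5, limma adjusted p = 0.0985). Sfrp1 (-0.16) and Sfrp4 (-0.05) were below 0, Dkk2 (0.07), Wif1 (0.10) and Dkk4 (0.12) above it, and the groups overlapped in these 5 genes. Frzb (Sfrp3), a secreted antagonist counted below with the extracellular modulators and not here, was lower (difference -2.06, limma adjusted p = 4.80e-05).

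The Axin scaffolds hold the complex that marks β-catenin for destruction. Axin1, present in most cells, read 5.87 and 6.08 on titled saline and 6.39 and 6.36 on titled ketamine, a difference of 0.40 (SE 0.118, limma adjusted p = 0.0375). The call on Axin1 was lost without titled saline array 1 (adjusted p = 0.128), under quantile normalisation (0.142) and under median centring (0.131). Axin2, a feedback target that the β-catenin signal itself switches on, read 6.27 and 6.07 against 6.49 and 6.16, and its groups overlapped. Its difference was 0.16, with a 95% interval of -0.18 to 0.50 (limma adjusted p = 0.441).

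Of the 3 TCF/LEF factors measured, 2 were lower, as were 9.92% of all genes, and Tcf7l1 did not pass. Tcf7l2, the factor known in the brain from thalamic neurons and from maturing oligodendrocytes, read 7.66 and 7.44 on titled saline and 5.61 and 5.85 on titled ketamine. Both titled ketamine arrays lay more than 1.5 log2 units under both titled saline arrays, and the difference was -1.82 (SE 0.135, limma adjusted p = 1.47e-04), a ratio of 0.284. Lef1, a factor that the hippocampus needs to form, read 6.46 and 6.30 against 5.92 and 5.71, a difference of -0.56 (SE 0.125, limma adjusted p = 0.0139), with the call lost without titled saline array 1 (adjusted p = 0.0819). Tcf7l1, mostly a repressor, read 5.59 and 5.52 against 5.47 and 5.61. Its difference was -0.01 with a 95% interval of -0.28 to 0.25 (limma adjusted p = 0.937). The 10 thalamic markers had a median difference of -0.19. Lhx9 (-0.84), Synpo2 (-0.78), Slc17a6 (-0.72) and Plekhg1 (-0.61) were called lower, and Zic1 (3.12), Calb2 (1.69) and Rora (1.18) higher, of which Zic1 and Calb2 are also in the granule cell list. Their part in the Tcf7l2 difference was not tested.

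Because TCF/LEF factors bind a short DNA element, the 37 promoter windows were searched on both strands for CTTTGAA and CTTTGAT, which differ in the last base. They occurred in 3 windows of the Wnt genes (8.1%), beside 8.7% of all 32851 windows. The 3 stretches are shown with 11 bases on either side, the match in capitals, on build GRCm38.p6 and on the strand of the gene: Dkk1 at chr19:30549596-30549624 (minus), Wnt11 at chr7:98835050-98835078 (plus) and Wnt5b at chr6:119449440-119449468 (minus).
Dkk1: tcctcccaaagCTTTGAAatcccatcccg
Wnt11: gacgtgggcggATCAAAGcgacggtccgc
Wnt5b: agtaagtctctCTTTGATctgctccctgt
The match began at -117 from the start site in Dkk1, at -51 in Wnt11, where it lies on the other strand, and at -71 in Wnt5b. Wnt11 and Wnt5b also had windows at other annotated start sites, which held no match. Of these genes limma called Wnt5b, on the deposited values. A match is only a match of letters.

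The rest of the pathway was counted in 6 lists with 88 genes outside the set. On the deposited values limma called 21 of them higher (23.9%, beside 23.2% of all genes) and 17 lower (19.3%, beside 9.92%). The called share was 43.2%, beside 33.1% of all genes, and the remaining 50 missed the threshold. The median difference of the 88 was 0.05, beside 0.13 over all genes. Of the 18 genes of Wnt secretion and extracellular modulation, 8 were lower and 2 higher, with a median difference of -0.22. That is 44.4% lower and 11.1% higher, beside 9.92% and 23.2% of all genes. Frzb, a secreted antagonist, read 6.94 and 6.82 on titled saline and 4.89 and 4.76 on titled ketamine (difference -2.06, limma adjusted p = 4.80e-05). Rspo2, an R-spondin that enhances Wnt signals, read 6.52 and 6.59 against 4.77 and 4.91 (-1.71, limma adjusted p = 8.60e-05), and Dkkl1, a Dickkopf-like protein, 6.55 and 7.02 against 4.92 and 5.28 (-1.68, limma adjusted p = 8.18e-04). In these 3 genes, as in Dkk3, both titled ketamine arrays were more than 1 log2 unit under both titled saline arrays.

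Of the 13 other receptors and regulators of receptor turnover, 6 were higher and 7 did not pass, with a median difference of 0.33. The share higher was 46.2%, beside 23.2% of all genes. Ror1, a receptor tyrosine kinase for Wnt5a, read 5.62 and 5.41 on titled saline and 7.65 and 7.41 on titled ketamine (difference 2.01, limma adjusted p = 9.43e-05). Mcc, named for its mutation in colorectal cancer and counted in this list without being a Wnt receptor, had a difference of 1.17 (limma adjusted p = 0.00112). Lgr4, an R-spondin receptor, had one of 0.80 (limma adjusted p = 0.00424). Among the 24 genes of Dishevelled, the destruction complex and β-catenin, 5 were higher and 3 lower. The share called was 33.3%, near the 33.1% of all genes. The Dishevelled-binding proteins of the Dact family ran in opposite directions: Dact1 read 5.56 and 5.51 against 7.28 and 7.43 (1.82, limma adjusted p = 6.85e-05) and Dact2 6.69 and 7.12 against 5.45 and 5.74 (-1.31, limma adjusted p = 0.00161). Amer1, a membrane partner of the destruction complex, had a difference of 0.78 (limma adjusted p = 0.00204). Ctnnb1, which encodes β-catenin, had one of 0.09 (limma adjusted p = 0.531).

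Among 15 nuclear co-factors 3 were higher and 2 lower, a called share of 33.3%, near the 33.1% of all genes. Hbp1, a repressor of TCF-driven genes, had a difference of 1.06 (limma adjusted p = 5.53e-04), Nlk, a kinase that acts on TCF/LEF factors, -1.04 (6.87e-04) and Ctbp2, a co-repressor, 0.93 (0.00110). Of 12 planar cell polarity genes 3 were higher and 3 lower, a called share of 50% beside 33.1% of all genes. Prickle2, a core protein of that branch, read 8.59 and 8.64 on titled saline and 6.63 and 6.72 on titled ketamine (difference -1.94, limma adjusted p = 4.80e-05), Prickle1 had -1.12 (7.57e-04) and Daam2, a formin that binds Dishevelled, 0.87 (0.00301). The list of 15 Wnt target genes shares Axin2, Lef1 and Dkk1 with the set. It had 4 higher and 2 lower, with a median difference of 0.08. The share called was 40%, beside 33.1% of all genes. Rnf43 and Lgr5, a feedback inhibitor and an R-spondin receptor that are also in the receptor list, had differences of 0.79 (limma adjusted p = 0.00197) and 0.68 (0.00606). Tnfrsf19, a receptor of the tumour necrosis factor family, had a difference of -0.66 (limma adjusted p = 0.00443). The lists thus held genes in both directions, except for the receptor list, which had none lower on the deposited values.

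**Figure D3:**
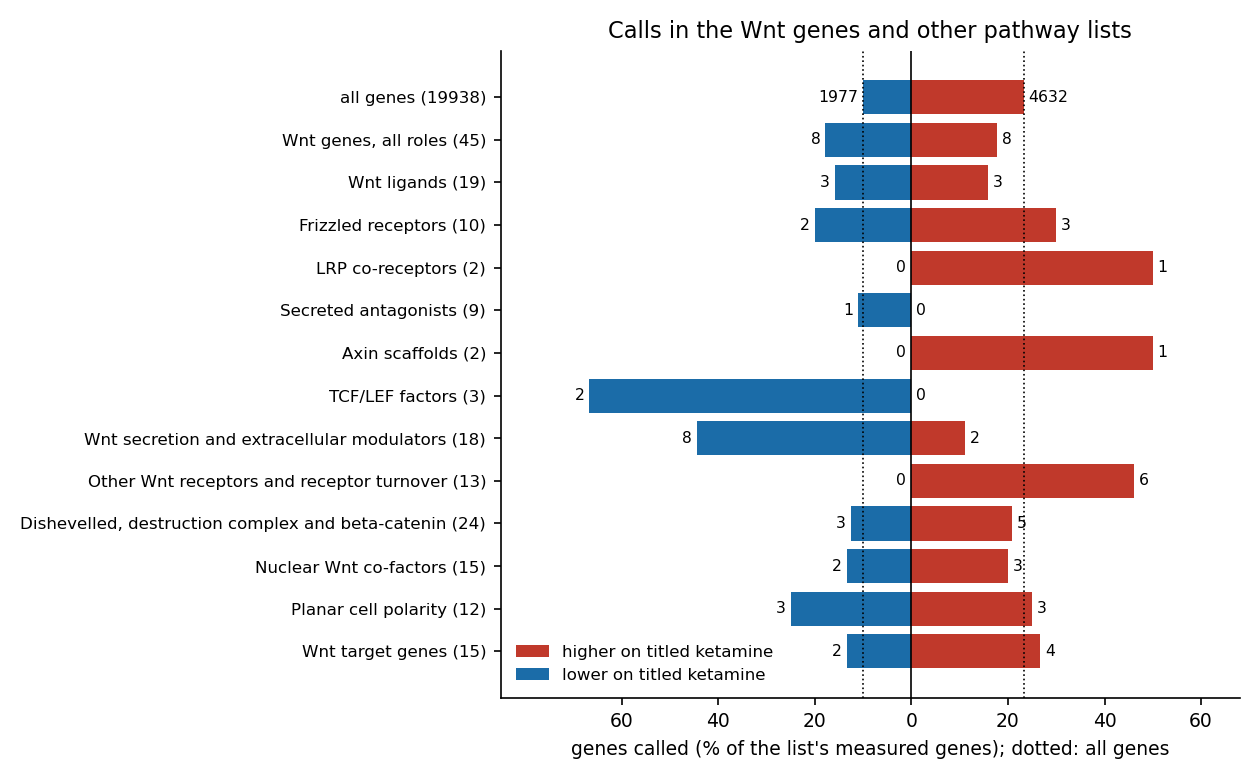
The share of measured genes (horizontal axis, percent) called higher (red, right) and lower (blue, left) on titled ketamine in each list, with the number of genes called at each bar and the number measured in brackets. The dotted lines mark all genes at 9.9% lower and 23.2% higher; among the 6 lists outside the set, the secretion list has the highest share of lower genes (44.4%) and the other receptors the highest share of higher genes (46.2%).

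**Figure D4:**
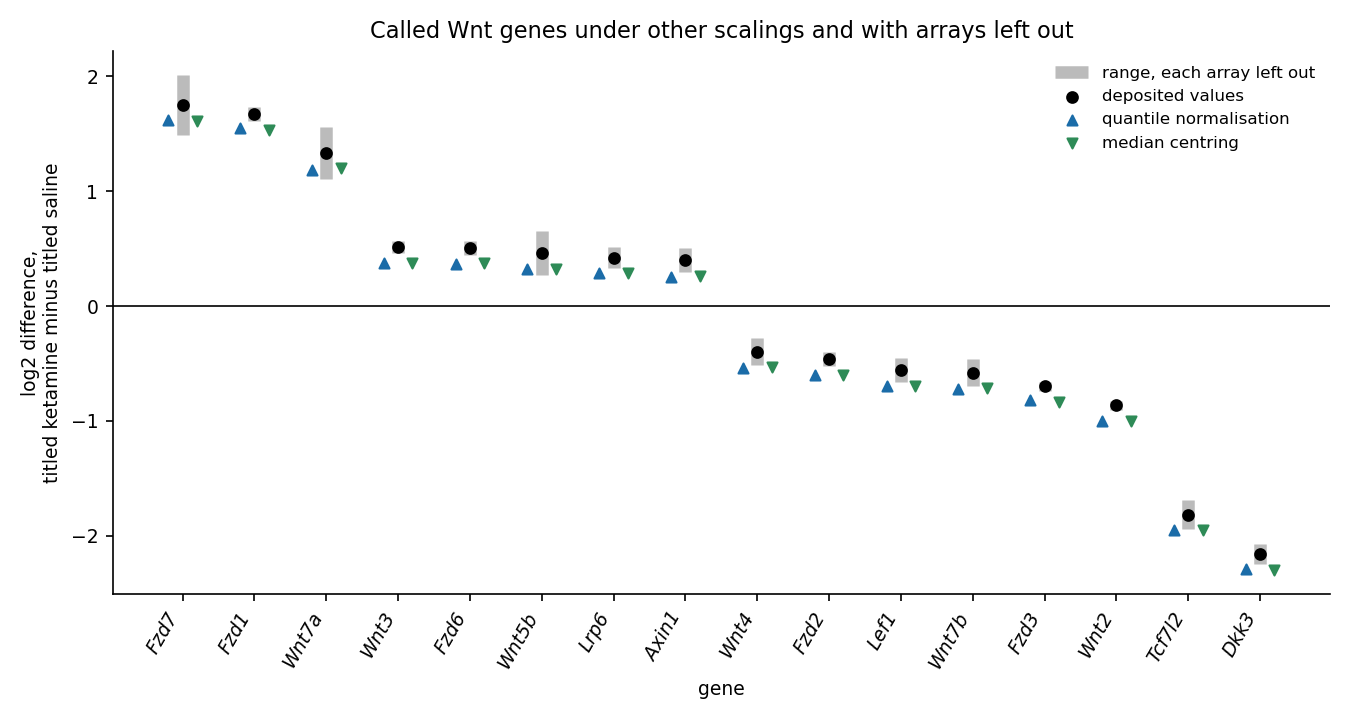
The log2 difference (vertical axis) of the 16 called Wnt genes on the deposited values (black), after quantile normalisation (blue), after median centring (green) and over the 4 fits with 1 array left out (grey bar). Every value stays on its side of 0, and both other scalings lie below the black points. For the grey bars the side was fixed in advance, because the groups of these genes do not overlap. Median centring lowers all differences by the same amount, too little to turn the side of any gene shown.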

How the data were processed

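Total RNA of 4 mice was read on 4 one-colour arrays. Per the labels the authors deposited RMA values on the log2 scale, made in Affymetrix Expression Console with a core-exon analysis; the design text also names another Affymetrix tool, and its version is not given in the sources used here, nor is the genome build. RMA subtracts background, equalises the arrays and summarises the probes of a row, so low values are compressed. Of 35556 rows, 21789 had exactly 1 symbol in the platform table (1621 several, 12146 none); 21698 matched RefSeq by gene number with equal symbols, among them all 46 Wnt rows. These 21789 rows were fitted with limma 3.58.1 (lmFit, eBayes, two-sided, Benjamini-Hochberg) in R 4.3.3, 2 arrays against 2, without covariates, and genes were counted by their row of highest mean (19938 genes). A 1.3-fold size was a second threshold. The number of arrays limits the precision. The script was tested on simulated data.

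Wnt genes with a sentence of their own were those called and past 1.3-fold, any whose arrays of a group differed by over 1 (none did), and every co-receptor, Axin and TCF/LEF gene. Fzd4 and Dkk1, past 1.3-fold without a call, were added after their values were seen. From the other lists came up to 3 called genes with the largest differences in each pathway list and up to 2 in each marker list, with more thalamic markers and Ctnnb1 added after their values were seen. The Wnt genes, the lists and this rule were chosen with earlier results of these data known. Replicate numbers did not pair the samples. Alternatives were quantile normalisation, median centring, a filter on low rows, limma with trend and robust settings, the mean over a gene's rows, 2-fold, a replicate block and each array left out.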

Additional observations from a re-analysis of the deposited data

How the results depend on the processing

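With 2 arrays per group the number of calls depended on single arrays. The signs of the 16 called genes were kept under every setting that measured them. Their groups do not overlap, so leaving out 1 array could not turn a sign. The filter, the trend and robust settings and the replicate block left the differences themselves unchanged. Median centring lowered all differences by the same amount, too little to turn the sign of a called gene. Quantile normalisation and median centring moved Wnt calls to 5 higher under both, with 11 and 13 lower. Wnt genes past 1.3-fold moved to 3 and 4 higher, with 13 lower under both. Other pathway genes moved to 28 lower under both. All rows moved from 5109 to 3311 and 3210 higher, and from 2115 to 3074 and 3213 lower. Both scalings kept 13 of the 16 calls and lost Axin1, Lrp6 and Wnt5b. Both gained Fzd8, Wnt3a and Wnt9a, with Sfrp2 and Wnt10a gained under centring. Past 2-fold were 3 higher and 2 lower. With single arrays left out, Wnt calls ranged from 0 to 8 higher and from 0 to 5 lower, those of other pathway genes from 0 to 14 and from 0 to 13, and those of all rows from 0 to 3171 and from 0 to 1403. The calls of 0 came without titled ketamine array 1 or 2, when 5974 and 6461 rows still had an unadjusted limma p under 0.05. The filter left 18 Wnt genes, 13 of them called, beside 4937 of all 9877 genes left (50%). Limma with trend and robust settings called 17 of the 45 Wnt genes (Fzd4 gained), beside 37.3% of all genes. The mean over rows called 16 of the 45, beside 33.6% of all genes.

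Genes near 0 turned sign, each without a call. Under median centring and quantile normalisation the differences were -0.069 and -0.076 for Dkk2, -0.013 and -0.034 for Dkk4, -0.058 and -0.069 for Fzd10, -0.047 and -0.052 for Fzd9, -0.034 and -0.044 for Wif1, and -0.069 and -0.077 for Wnt11. With single arrays left out they ranged from -0.0082 to 0.32 for Axin2, -0.024 to 0.16 for Dkk2, -0.12 to 0.37 for Dkk4, -0.039 to 0.19 for Fzd10, -0.21 to 0.019 for Fzd5, -0.018 to 0.20 for Fzd9, -0.34 to 0.014 for Sfrp1, -0.18 to 0.088 for Sfrp4, -0.083 to 0.055 for Tcf7l1, -0.12 to 0.33 for Wif1, -0.27 to 0.038 for Wnt1, -0.028 to 0.16 for Wnt11 and -0.33 to 0.14 for Wnt5a.

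The samples share only a replicate number: the deviations of same-numbered arrays from their group means had a correlation of 0.03. With the number as a replicate block 20 of the 45 Wnt genes were called, beside 37.8% of all genes. Of these Wnt genes 11 were higher and 9 lower, all 16 among them, and Dkk1, Fzd4, Wnt16 and Wnt9a were gained. The cause of these shifts was not tested.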
